A study of Homo sapiens with 25 samples.

Results

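The genes described here are 28 genes of cholesterol synthesis, sterol sensing, cholesterol uptake and transport, and cholesterol efflux. They were taken by gene symbol from a given list, without use of their measured values, and are 28 of the 28395 genes in the count table. All 28 passed the filter on low counts and were among the 14658 genes tested. By role, 4 sense sterols (SREBF1, SREBF2, INSIG1, SCAP), 7 lead from acetyl-CoA to farnesyl diphosphate (ACAT2, HMGCS1, MVK, PMVK, MVD, IDI1, FDPS) and 3 lead from there to lanosterol (FDFT1, SQLE, LSS). A further 8 convert lanosterol to cholesterol (CYP51A1, TM7SF2, MSMO1, NSDHL, HSD17B7, EBP, SC5D, DHCR7), 2 move cholesterol inside the cell (STARD4, NPC1), and 4 belong to liver X receptor (LXR) signalling and efflux (NR1H2, ABCA1, ABCG1, MYLIP).

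The cells were A549, an established line from a human lung carcinoma, with TRRAP fused to an auxin-inducible degron (mAID). TRRAP is a large scaffold protein of histone acetyltransferase complexes, and the series asks about its part in mitotic transcription and in the response to inhibition of the checkpoint kinase CHK1. Every group, controls included, carried the degron fusion according to the growth protocol (the genotype label of the RNA samples reads WT), and was blocked with thymidine (2 mM, 20 h) and then released for 4 h. The 4 groups of 3 libraries were DMSO, prexasertib (a CHK1 inhibitor, 3 h), 5-Ph-IAA (the ligand that directs mAID-tagged protein to degradation, 1 µM for 6 h), and both drugs. The labels give the prexasertib dose in units that differ between sample types, so no dose is used, and they do not say whether the line is 1 clone. Cells without the degron given 5-Ph-IAA were not analysed here, so an effect of the compound itself and an effect of TRRAP loss cannot be told apart.

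Cholesterol is built from acetyl-CoA by way of mevalonate, farnesyl diphosphate, squalene and lanosterol. When membrane sterol is low, SCAP carries the transcription factor SREBP2 (gene SREBF2) from the endoplasmic reticulum to the Golgi, where it is cut and its released part activates most genes of the pathway. INSIG1 holds SCAP back when sterol is high. The LXR proteins, activated by oxysterols, act in the opposite sense and switch on genes of cholesterol efflux.

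The 12 libraries held 10830048 to 17789482 counts. Levels below are in CPM, the usual depth-normalised count unit, on TMM-scaled library sizes, and libraries are named by the replicate number in their labels. TRRAP mRNA, which does not check the degradation of the protein, was 83.2 ± 9.90 CPM under DMSO and 74.8 ± 10.4 CPM under prexasertib, and 133 ± 15.3 CPM under 5-Ph-IAA and 119 ± 20.8 CPM under the 2 drugs together (mean ± SD, n = 3). The epithelial markers KRT8 and KRT18 had group means of 2798 to 3607 and 1768 to 2392 CPM and CDH1 91.5 to 107 CPM, whereas KRT19 (3.48 to 5.29 CPM) and EPCAM (0.652 to 1.06 CPM) were low. Of 8 markers of other cell types, SNAP25 (44.9 to 52.1 CPM), COL1A1 (30.3 to 34.7 CPM) and SYT1 (7.93 to 10.8 CPM) were present, COL3A1 reached 1.20 CPM, and PTPRC, PECAM1, CDH5 and HBB stayed at or under 0.377 CPM in every group mean. The number 3 libraries stood apart from numbers 1 and 2 in all 4 groups. Each drug comparison is therefore given both from the fit with group terms alone and from a fit that adds the replicate number, called the replicate block below. The block lowered the median standard error (SE) of the 28 genes for 5-Ph-IAA against DMSO from 0.121 to 0.073 on the log2 scale.

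Promoters were compared first, because they show what the genes share in sequence. RefSeq (GRCh38.p14) gave a window from 250 bases before to 50 bases after the transcription start for 24 of the 28 genes. A gene was counted if a motif occurred on either strand in the window of any of its starts. The sterol regulatory element was searched as TCACNCCAC alone, so variant sites were not counted and a gene without a match may still hold one. It was in 1 of 24 genes (4.17%, SREBF2), against 1.39% of 27305 genes. The CCAAT box, bound by NF-Y, was in 17 of 24 (70.8%), against 39.7% of all genes. The GC box GGGCGG was in 23 of 24 (95.8%), against 48.3%, and the cell-cycle element TTTGAA in 2 of 24 (8.33%), against 18.2%. These matches are a description and not evidence of binding, and the shares were not tested. The shares of all genes cover every gene with a listed promoter, whether expressed in these cells or not. The 24 genes had all passed the filter on low counts, so the 2 sets differ in expression as well. A comparison with the tested genes alone was not made. The following 250 bases before the first listed start are shown for the gene with the sterol element (SREBF2, chr22:41832855-41833104, plus strand). HMGCS1 (chr5:43313413-43313662, minus strand) is shown for its drug interaction. STARD4 (chr5:111512536-111512785, minus strand) is shown for its difference by replicate number. Both were picked after their values were seen. SC5D (chr11:121292521-121292770, plus strand) and NR1H2 (chr19:50376207-50376456, plus strand) are shown as genes that rose with 5-Ph-IAA. Capitals mark CCAAT, its reverse complement ATTGG, or the sterol element, and the marked motifs did not overlap one another.
SREBF2: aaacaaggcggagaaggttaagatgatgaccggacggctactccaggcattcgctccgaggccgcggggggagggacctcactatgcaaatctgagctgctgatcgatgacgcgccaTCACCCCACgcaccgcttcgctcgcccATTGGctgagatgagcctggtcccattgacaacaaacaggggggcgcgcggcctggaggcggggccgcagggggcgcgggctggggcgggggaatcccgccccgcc
HMGCS1: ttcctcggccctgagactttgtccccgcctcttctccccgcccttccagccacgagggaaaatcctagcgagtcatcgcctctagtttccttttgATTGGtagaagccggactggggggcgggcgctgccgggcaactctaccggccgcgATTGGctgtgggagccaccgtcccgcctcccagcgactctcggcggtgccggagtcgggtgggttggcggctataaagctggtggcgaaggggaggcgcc
STARD4: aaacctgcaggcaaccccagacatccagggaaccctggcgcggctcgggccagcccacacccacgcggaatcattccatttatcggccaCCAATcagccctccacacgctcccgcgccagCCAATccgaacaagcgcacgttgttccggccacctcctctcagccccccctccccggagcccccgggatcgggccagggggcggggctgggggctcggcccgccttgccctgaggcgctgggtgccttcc
SC5D: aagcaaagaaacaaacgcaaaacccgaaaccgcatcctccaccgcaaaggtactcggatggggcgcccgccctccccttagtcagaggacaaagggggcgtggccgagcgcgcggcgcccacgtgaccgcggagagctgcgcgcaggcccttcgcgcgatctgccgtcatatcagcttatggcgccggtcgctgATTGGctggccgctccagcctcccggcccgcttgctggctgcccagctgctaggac
NR1H2: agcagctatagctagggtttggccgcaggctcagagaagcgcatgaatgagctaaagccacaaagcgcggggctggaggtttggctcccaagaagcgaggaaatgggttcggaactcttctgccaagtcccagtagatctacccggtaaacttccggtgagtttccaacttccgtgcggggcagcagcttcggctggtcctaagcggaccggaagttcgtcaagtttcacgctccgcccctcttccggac
SREBF2 held the sterol element 5′ of 1 reverse CCAAT box. HMGCS1 held 2 reverse CCAAT boxes, STARD4 2 forward boxes and SC5D 1 reverse box, and NR1H2 held none.

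With 5-Ph-IAA, single steps of the pathway moved in opposite directions. SC5D, IDI1, NR1H2 and MYLIP rose, FDPS and SQLE fell, and the other 22 genes did not pass the test. The 4 genes that rose are 14.3% of the 28, beside 9.65% of all tested genes, and the 2 that fell are 7.14%, beside 12.2%. The median log2 difference of the 28 genes was 0.00 against 0.0058 for all genes, and their median absolute difference was 0.20 against 0.24. Both shares lay near those of all genes, so neither is a result about the set. With the replicate block 7 genes rose (25%, beside 19% of all genes) and 8 fell (28.6%, beside 23.6%). In bulk libraries such as these, fewer cells of a type and less RNA per cell cannot be told apart.

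SC5D, which places the double bond at carbon 5 in a late step to cholesterol, showed the largest called rise. The gene (ID 6309) lies at chr11:121292771-121313410 and overlaps no other annotated gene. It stood at 20.2, 20.3 and 16.6 CPM in DMSO libraries 1, 2 and 3, and at 30.7, 29.7 and 27.8 CPM with 5-Ph-IAA. All 3 treated libraries were above all 3 controls. The log2 difference was 0.63 ± 0.16 (SE), a 1.54-fold rise (edgeR adjusted p = 0.012, n = 3 per group), and within numbers 1, 2 and 3 it was 0.60, 0.54 and 0.74. Without DMSO library 3 the edgeR adjusted p was 0.051.

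SQLE, squalene epoxidase, which adds the first oxygen to squalene, fell. It stood at 93.5, 91.5 and 80.6 CPM in DMSO and at 72.8, 68.9 and 63.6 CPM with 5-Ph-IAA. The groups did not overlap, and in each group library 3 was the lowest. The log2 difference was -0.37 ± 0.10 (edgeR adjusted p = 0.018), with -0.36, -0.41 and -0.34 within the 3 numbers. Without 1 of DMSO 1, DMSO 2, 5-Ph-IAA 2 or 5-Ph-IAA 3 the edgeR adjusted p rose to at most 0.071, and scaling by library size alone gave 0.19.

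FDPS and IDI1 act next to each other in the mevalonate branch and moved in opposite directions. FDPS (ID 2224, chr1:155308866-155320665), which makes farnesyl diphosphate, stood at 140.1, 128 and 152 CPM in DMSO and at 109, 110.2 and 118 CPM with 5-Ph-IAA. All 3 treated libraries lay below the controls, and FDPS fell by 0.32 ± 0.083 on the log2 scale (edgeR adjusted p = 0.015). IDI1 (ID 3422, chr10:1039152-1056704), which makes the isomer that FDPS consumes, stood at 99.4, 88.2 and 84.9 CPM in DMSO and at 116, 108 and 116 CPM with 5-Ph-IAA, again without overlap. It rose by 0.32 ± 0.094 (edgeR adjusted p = 0.028). FDPS lost its call without DMSO 3, 5-Ph-IAA 1 or 5-Ph-IAA 2 (edgeR adjusted p at most 0.061), and scaling by library size alone gave 0.12. IDI1 lost its call without DMSO 2, DMSO 3, 5-Ph-IAA 1 or 5-Ph-IAA 3 (at most 0.097). RefSeq lists 10 pseudogenes of FDPS and 3 of IDI1, and IDI1 overlaps WDR37 (24.1 CPM), so their counts are uncertain to that extent.

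NR1H2 and MYLIP, of the LXR branch, rose. NR1H2 encodes LXR-beta (ID 7376, chr19:50376457-50383388, no overlapping gene) and stood at 82.4, 86.2 and 96.6 CPM in DMSO and at 110.8, 105 and 126 CPM with 5-Ph-IAA. The groups did not overlap, and the log2 difference was 0.37 ± 0.093 (edgeR adjusted p = 0.013, 0.062 without DMSO 1). MYLIP, an LXR target whose product is a ubiquitin ligase for lipoprotein receptors (ID 29116, chr6:16129086-16163887), stood at 12.6, 13.99 and 10.4 CPM in DMSO and at 17.5, 16.5 and 16.2 CPM with 5-Ph-IAA. The groups did not overlap and MYLIP rose by 0.44 ± 0.13 (edgeR adjusted p = 0.026). Its call was lost without DMSO 1, DMSO 3, 5-Ph-IAA 1 or 5-Ph-IAA 2 (at most 0.11). The efflux transporters of the same branch gave 0.02 ± 0.13 for ABCA1 and 0.21 ± 0.28 for ABCG1, neither past the test.

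The replicate block added 9 calls under 5-Ph-IAA. Of these, STARD4, which carries sterol between membranes, rose by 0.62 ± 0.12 (edgeR adjusted p = 4.9e-05 with the block, 0.23 without). HMGCS1, the synthase before mevalonate, rose by 0.20 ± 0.055 (0.0035 with the block, 0.42 without), and INSIG1 by 0.21 ± 0.074 (0.017 and 0.52). The 6 genes that fell were SREBF2 (-0.21, edgeR adjusted p = 0.0077 with the block and 0.18 without), ACAT2 (-0.26, 0.0034 and 0.085), PMVK (-0.30, 0.0053 and 0.23), FDFT1 (-0.15, 0.019 and 0.19), CYP51A1 (-0.25, 0.036 and 0.2) and EBP (-0.20, 0.013 and 0.28). For SREBF2, ACAT2 and CYP51A1 the 5-Ph-IAA libraries also lay wholly below the DMSO libraries. Such separation was therefore not confined to genes called by group terms alone, and its share among all genes is not given here. ACAT2 overlaps TCP1 (327 CPM) and SOD2 (44.1 CPM), so its counts are uncertain to that extent. By role, with the block, 2 mevalonate genes rose and 3 fell of 7, 2 of 3 genes from squalene to lanosterol fell, and of the 8 later genes 1 rose and 2 fell.

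**Figure D1:**
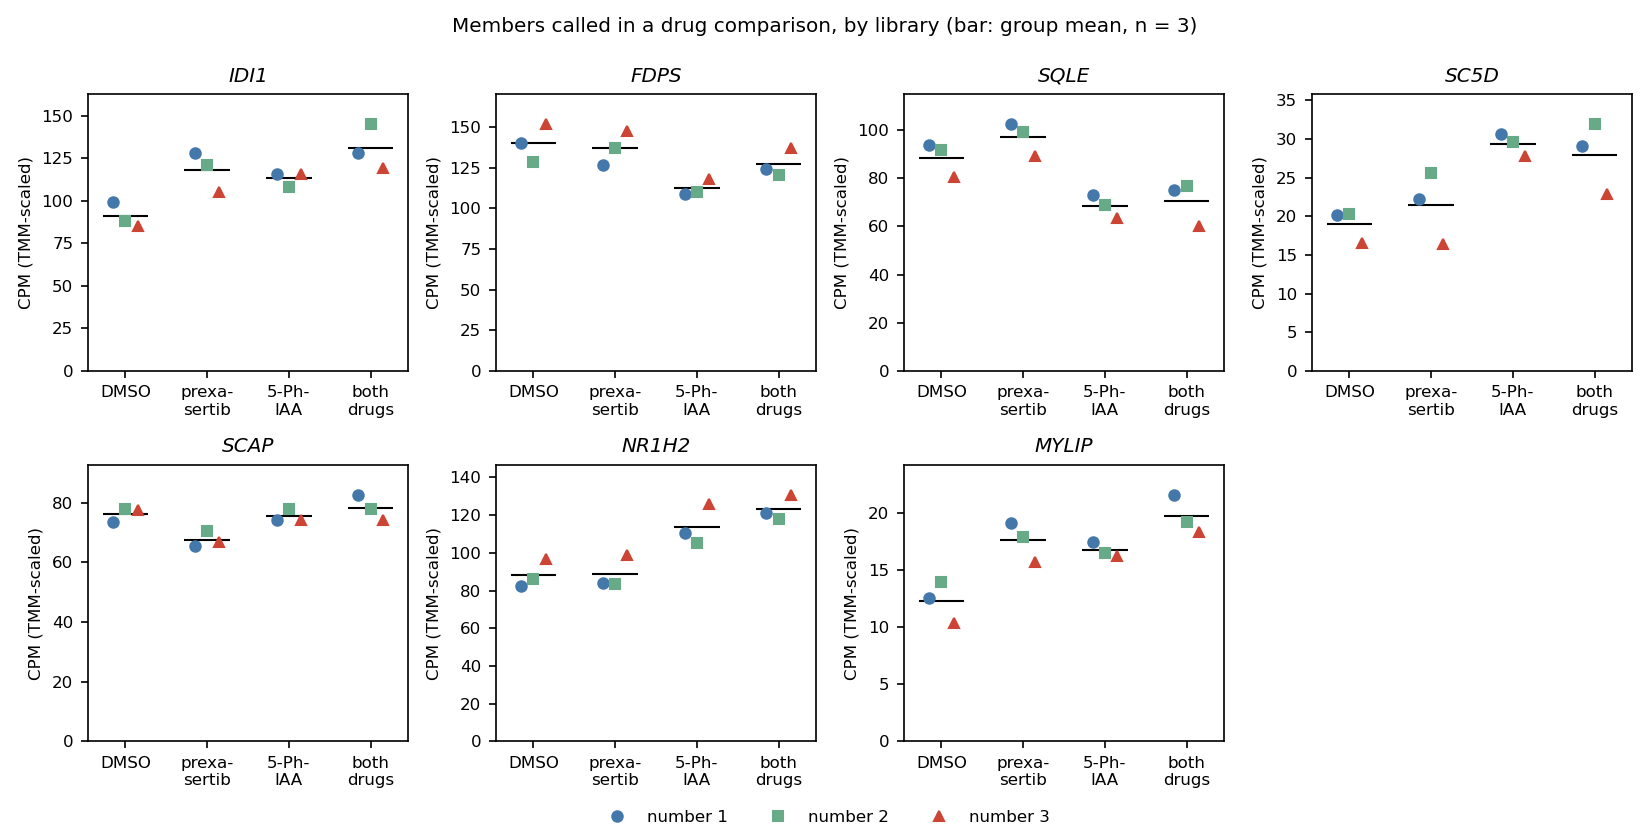
CPM of the 7 genes called in a drug comparison by group terms alone, with each of the 12 libraries as a point shaped and coloured by its replicate number, and a bar at the mean of each group (n = 3). SQLE lies at 63.6 to 72.8 CPM with 5-Ph-IAA, below every DMSO library (80.6 to 93.5 CPM), and SC5D lies above its DMSO libraries.

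The same ligand was also compared in cells that had received prexasertib, with both drugs against prexasertib. This comparison shares no library with 5-Ph-IAA against DMSO. NR1H2 and SCAP rose and SQLE fell. The 2 genes that rose are 7.14% of the 28, beside 7.85% of all tested genes, and the 1 that fell is 3.57%, beside 10.4%. The median log2 difference was 0.00 against 0.015 for all genes. With the replicate block 7 genes rose (25%, beside 17.2% of all genes) and 3 fell (10.7%, beside 19.9%).

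SQLE stood at 102, 99.1 and 89.0 CPM with prexasertib and at 75.2, 76.6 and 60.0 CPM with both drugs. The groups did not overlap, and SQLE fell by 0.46 ± 0.10 on the log2 scale (edgeR adjusted p = 0.007). Library size alone as the scaling gave an edgeR adjusted p of 0.06. NR1H2 stood at 84.1, 83.5 and 99.1 CPM with prexasertib and at 121, 118 and 131 CPM with both drugs. The groups did not overlap, and NR1H2 rose by 0.47 ± 0.094 (edgeR adjusted p = 0.0035). It was called in all 18 alternative settings, with an adjusted p of at most 0.021.

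SCAP (ID 22937, chr3:47413681-47477127), the escort of the SREBP proteins, had a smaller difference. It stood at 65.4, 70.5 and 66.8 CPM with prexasertib and at 82.8, 77.8 and 74.3 CPM with both drugs. The groups did not overlap and the log2 difference was 0.21 ± 0.069 (edgeR adjusted p = 0.048). The call was held by 5 of 18 alternative settings and was lost when any 1 library but both drugs 3 was left out (at most 0.18). In DMSO it stood at 73.6, 77.9 and 77.7 CPM, and SCAP gave -0.18 ± 0.069 for prexasertib against DMSO (edgeR adjusted p = 0.19), so the libraries with prexasertib alone were the lowest of all 12.

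Genes called for both drugs against prexasertib only with the block were SC5D (0.38 ± 0.10, edgeR adjusted p = 0.0022, 0.12 without it), STARD4 (0.46 ± 0.12, 0.0016 and 0.41), MVD (0.25, 0.047 and 0.18), HSD17B7 (0.25, 0.049 and 0.16) and ABCG1 (0.65 ± 0.24, 0.031 and 0.14), which rose. SREBF1 (-0.24, 0.0015 and 0.069) and HMGCS1 (-0.14 ± 0.056, 0.047 and 0.61) fell. ABCG1 was low, at 2.71 ± 0.33 CPM with prexasertib and 4.33 ± 1.40 CPM with both drugs (mean ± SD, n = 3). In DMSO it stood at 4.16 ± 1.44 CPM, close to the level with both drugs. The groups did not overlap for SREBF1, ABCG1 and ABCA1, although group terms alone called none of them. SC5D stood at 22.2, 25.6 and 16.5 CPM with prexasertib and at 29.1, 31.9 and 22.9 CPM with both drugs. Its groups overlapped through prexasertib 2 and both drugs 3, while the difference within each number was positive. FDPS stood at 127, 137 and 148 CPM with prexasertib and at 124, 121 and 137 CPM with both drugs, and was not called with or without the block.

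Prexasertib alone moved few of the genes. IDI1 and MYLIP rose and none fell. These 2 are 7.14% of the 28, beside 2.36% of all tested genes that rose and 2.37% that fell. The median log2 difference was 0.05 against -0.0037 for all genes. This comparison shares the DMSO libraries with 5-Ph-IAA against DMSO and the prexasertib libraries with the comparison before it. With the replicate block 4 genes rose (14.3%, beside 8.37% of all genes that rose and 9.77% that fell).

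IDI1 stood at 128, 120.8 and 105 CPM with prexasertib, above all DMSO libraries (84.9 to 99.4 CPM). It rose by 0.38 ± 0.095 (edgeR adjusted p = 0.036). MYLIP stood at 19.2, 17.9 and 15.8 CPM, above the DMSO range of 10.4 to 13.99 CPM, and rose by 0.52 ± 0.13 (edgeR adjusted p = 0.038). Both calls were lost in many settings without the block. IDI1 lost its call without DMSO 2 or 3, prexasertib 1 or 2, 5-Ph-IAA 1 or 2, or both drugs 1, and MYLIP without DMSO 1 or 3, prexasertib 1 or 2, 5-Ph-IAA 1 or 2, or both drugs 2 (edgeR adjusted p at most 0.15 in each case). With library size alone as the scaling neither gene was called, and with the block the edgeR adjusted p was 3e-05 for IDI1 and 0.0011 for MYLIP.

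The block added STARD4 (0.48 ± 0.13, edgeR adjusted p = 0.0045, 0.55 without it) and NPC1 (0.23 ± 0.062, 0.007 and 0.68), both of which rose with prexasertib. NPC1 exports cholesterol from lysosomes. Within numbers 1, 2 and 3 the log2 difference was 0.39, 0.75 and 0.30 for STARD4 and 0.10, 0.26 and 0.31 for NPC1. Each was positive in all 3 numbers, although the groups overlapped. SCAP and HSD17B7 were not called with or without the block, although their groups did not overlap.

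**Figure D2:**
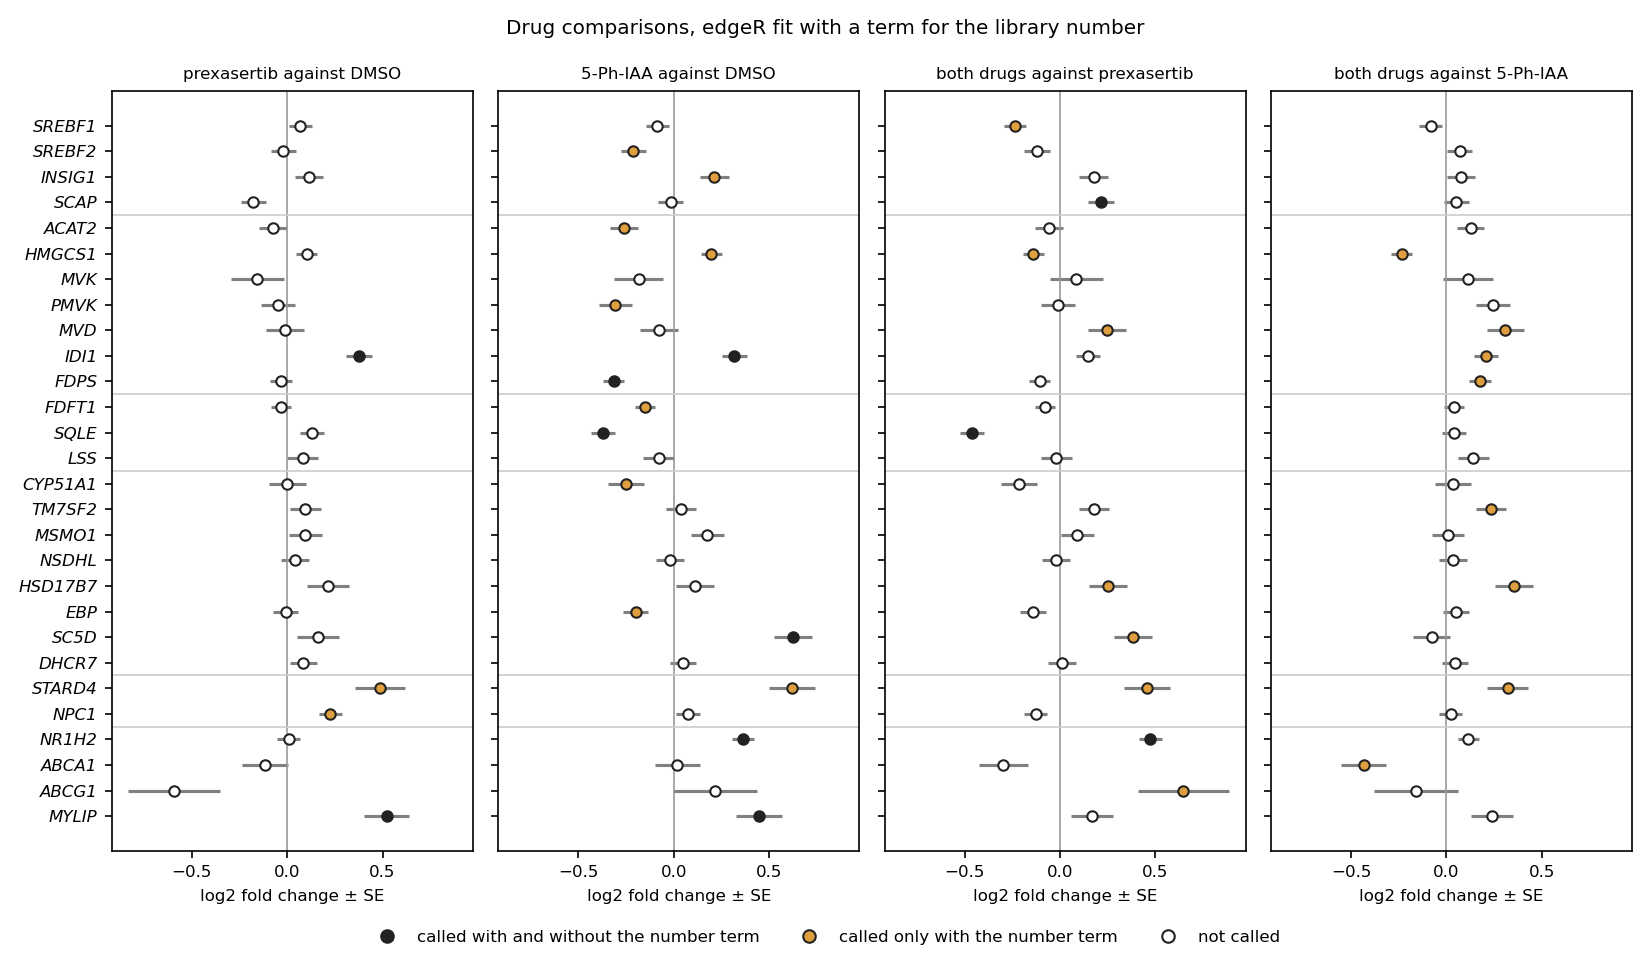
Log2 fold change ± SE of the 28 genes in 4 drug comparisons, from the edgeR fit with the replicate block, ordered by role and separated by grey lines. Black points were called with and without the block, orange points only with it, and white points were not called, so that 5-Ph-IAA against DMSO shows 6 black points and both drugs against 5-Ph-IAA shows none.

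Prexasertib was also compared in cells that had 5-Ph-IAA, with both drugs against 5-Ph-IAA. None of the 28 genes was called by edgeR with group terms alone (0 higher beside 1.17% of all tested genes, 0 lower beside 1.26%), 5 had an unadjusted p under 0.05, and DESeq2 called 0. With the replicate block 6 rose (21.4%, beside 7.8% of all genes) and 2 fell (7.14%, beside 7.7%). The genes that rose were HSD17B7 (0.35 ± 0.10, edgeR adjusted p = 0.01 with the block, 0.15 without), MVD (0.31, 0.023 and 0.25), IDI1 (0.21 ± 0.063, 0.021 and 0.34), FDPS (0.18, 0.024 and 0.36), TM7SF2 (0.23, 0.033 and 0.72) and STARD4 (0.32 ± 0.11, 0.044 and 0.75). HMGCS1 (-0.23 ± 0.055, 0.002 and 0.59) and ABCA1 (-0.43 ± 0.12, 0.0094 and 0.13) fell. IDI1 stood at 128, 145 and 119 CPM with both drugs, and all 3 libraries were above those with 5-Ph-IAA alone. MYLIP stood at 21.6, 19.3 and 18.3 CPM, also above its 5-Ph-IAA libraries, but was not called. ABCA1, which loads cholesterol onto apolipoprotein, had all 3 libraries with both drugs (11.9 to 12.4 CPM) below those with 5-Ph-IAA (14.7 to 18.8 CPM).

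Whether the effect of one drug differed with the other was tested by the interaction term. By edgeR with group terms alone 0 of 28 genes were called, beside 0% of all tested genes in either direction, 1 gene had an unadjusted p under 0.05, and DESeq2 called 0. With the replicate block HMGCS1 was called, 1 of 28 (3.57%), beside 0.28% of all genes lower and 0.375% higher. HMGCS1 (ID 3157, chr5:43287470-43313412, no overlapping gene) was chosen for this account after its values were seen. It stood at 158, 145 and 119 CPM in DMSO, 162, 173 and 120.5 CPM under prexasertib, 177, 174 and 134 CPM under 5-Ph-IAA, and 144, 156 and 113 CPM for both drugs. In every group library 3 was the lowest, and all pairs of groups overlapped. Within numbers 1, 2 and 3 the log2 difference with 5-Ph-IAA was 0.16, 0.26 and 0.17 in cells without prexasertib, and -0.16, -0.16 and -0.09 in cells with prexasertib. The interaction was -0.34 ± 0.079 with the block (edgeR adjusted p = 0.026) and -0.34 ± 0.23 without it (edgeR adjusted p = 1).

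The largest log2 difference of any of the 28 genes in any comparison, that of STARD4, followed the replicate number. With a group term in the fit, 15 genes were lower in the number 3 libraries than in the mean of numbers 1 and 2 (53.6%, beside 21.2% of all tested genes), and 6 were higher (21.4%, beside 22.6%). The median log2 difference was -0.15 against 0.0043 for all genes, and the median absolute difference was 0.19 against 0.18. The contrast was chosen with earlier results on these libraries known. Libraries that share a number were taken as paired. The p-values of this contrast count each library as a sample and do not measure the spread between replicate numbers. The labels do not say what the number marks, and its part in any drug result was not tested beyond the fits given above.

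**Figure D3:**
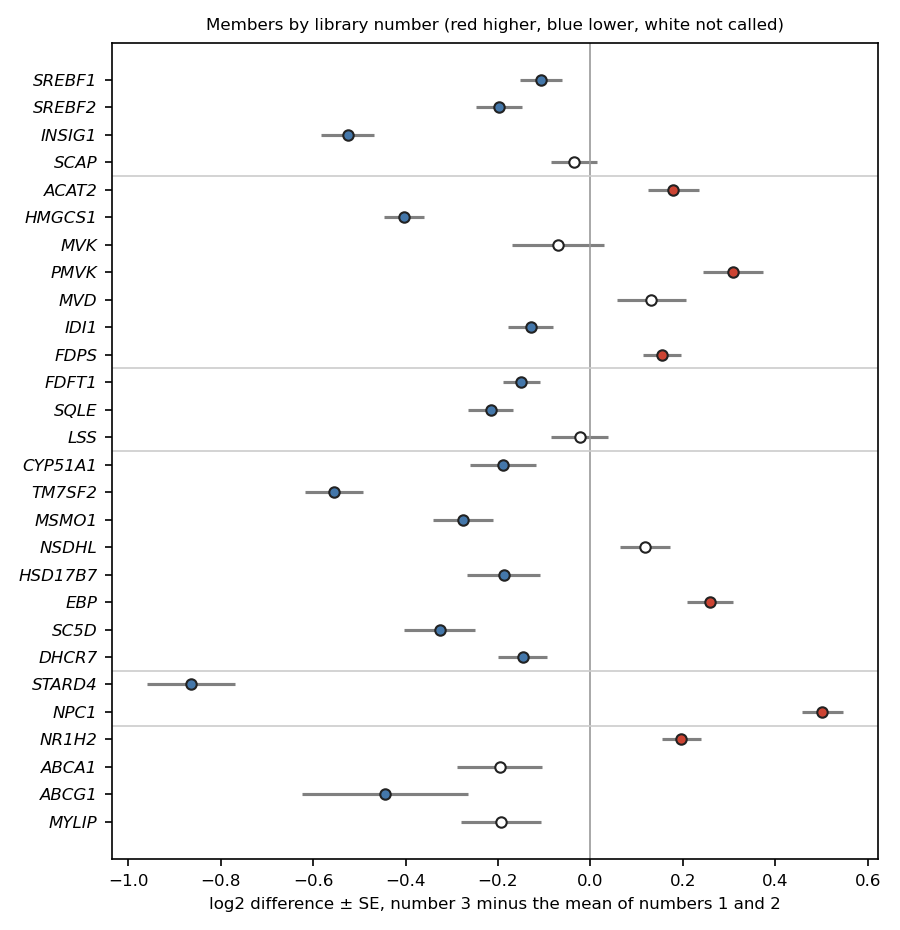
Log2 difference ± SE of the 28 genes between the number 3 libraries and the mean of numbers 1 and 2, from the edgeR fit with group terms, ordered by role. Blue points were called lower (15 genes), red points higher (6 genes) and white points were not called (7 genes), and STARD4 lies farthest to the left.

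Among the sensors, INSIG1 (ID 3638, chr7:155297878-155310235) had the largest difference. It stood at 58.2, 51.0 and 41.3 CPM in DMSO libraries 1, 2 and 3, at 64.7, 60.3 and 39.2 CPM with prexasertib, at 64.7, 62.5 and 47.4 CPM in the 5-Ph-IAA group, and at 70.2, 69.5 and 45.7 CPM with both drugs. Every number 3 library was below every other library. The log2 difference was -0.52 ± 0.057 (edgeR adjusted p = 1.7e-10, n = 4 libraries against 8 libraries). SREBF2 gave -0.20 ± 0.05 (edgeR adjusted p = 0.0012), SREBF1 -0.11 ± 0.045 (0.048) and SCAP -0.04 ± 0.049, which was not called.

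Along the synthesis chain the enzymes did not move together. In the branch to farnesyl diphosphate HMGCS1 (-0.40 ± 0.043, edgeR adjusted p = 7.7e-11) and IDI1 (-0.13, 0.029) were lower, whereas PMVK (0.31, 0.00022), ACAT2 (0.18, 0.0069) and FDPS (0.15, 0.0022) were higher. MVK and MVD were not called. HMGCS1 stood at 113 to 134 CPM in the number 3 libraries and at 144 to 177 CPM in the others, without overlap. FDFT1, squalene synthase (-0.15, 0.0021), and SQLE (-0.22, 0.00025) were lower, and LSS, which closes the ring to lanosterol, was not called (-0.02).

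Of the 8 genes after lanosterol 6 were lower, 1 was higher and 1 was not called. TM7SF2, a sterol reductase (ID 7108, chr11:65111872-65116230), stood at 43.3, 43.0 and 31.1 CPM in DMSO, at 48.6, 47.4 and 30.0 CPM with prexasertib, at 45.7, 43.1 and 31.9 CPM in the 5-Ph-IAA group, and at 53.0, 54.1 and 35.2 CPM with both drugs. Every number 3 library was below all others, and the log2 difference was -0.56 ± 0.062 (edgeR adjusted p = 2.6e-10). SC5D (-0.33, 0.00053), MSMO1 (-0.27, 0.00055), CYP51A1 (-0.19, 0.036), HSD17B7 (-0.19, 0.047) and DHCR7 (-0.15, 0.024) were also lower. EBP, which moves a double bond in the sterol ring (ID 10682, chrX:48521808-48528716), was higher (0.26, edgeR adjusted p = 3.4e-05), at 81.3 to 95.9 CPM against 64.2 to 80.5 CPM in the other libraries. NSDHL had all number 3 libraries above the rest (50.5 to 52.7 against 46.4 to 48.9 CPM) but was not called (0.12, edgeR adjusted p = 0.078).

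The genes that move cholesterol inside the cell differed in opposite directions. STARD4 (ID 134429, chr5:111496033-111512535) stood at 15.2, 11.3 and 7.94 CPM in DMSO, at 20.0, 19.0 and 9.80 CPM with prexasertib, at 19.9, 21.0 and 12.1 CPM in the 5-Ph-IAA group, and at 25.1, 28.3 and 13.7 CPM with both drugs. Library 3 was the lowest in every group, and over all 12 libraries the ranges of number 3 (7.94 to 13.7 CPM) and of numbers 1 and 2 (11.3 to 28.3 CPM) overlapped. The log2 difference was -0.86 ± 0.095 (edgeR adjusted p = 1.9e-10). NPC1 (ID 4864, chr18:23506184-23586506), named here after its values were seen, was higher by 0.50 ± 0.045 (edgeR adjusted p = 3e-12), at 175 to 228 CPM in number 3 and 122 to 146 CPM in the others. NPC1 overlaps RMC1 (28.8 CPM).

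In the LXR branch NR1H2 was higher (0.20, edgeR adjusted p = 0.00022) and ABCG1 lower (-0.44 ± 0.18, 0.037), while ABCA1 (-0.20) and MYLIP (-0.19) were not called. Counted by rank instead, 13 of the 28 genes had their lowest library of every group in number 3 (16.5% of all tested genes did) and 7 had their highest (18.4%). The calls of INSIG1, HMGCS1, TM7SF2, STARD4, NPC1, SREBF2, PMVK, FDPS, FDFT1, SQLE, MSMO1, EBP, SC5D and NR1H2 were kept in all 16 alternative settings. ACAT2 lost its call without 5-Ph-IAA 3 (edgeR adjusted p = 0.056), and SREBF1, IDI1, CYP51A1, HSD17B7, DHCR7 and ABCG1 lost theirs in 5 to 11 settings each. Without both drugs 3 the number of the 28 genes called lower was 9, beside 2891 of all 14841 genes tested.

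**Figure D4:**
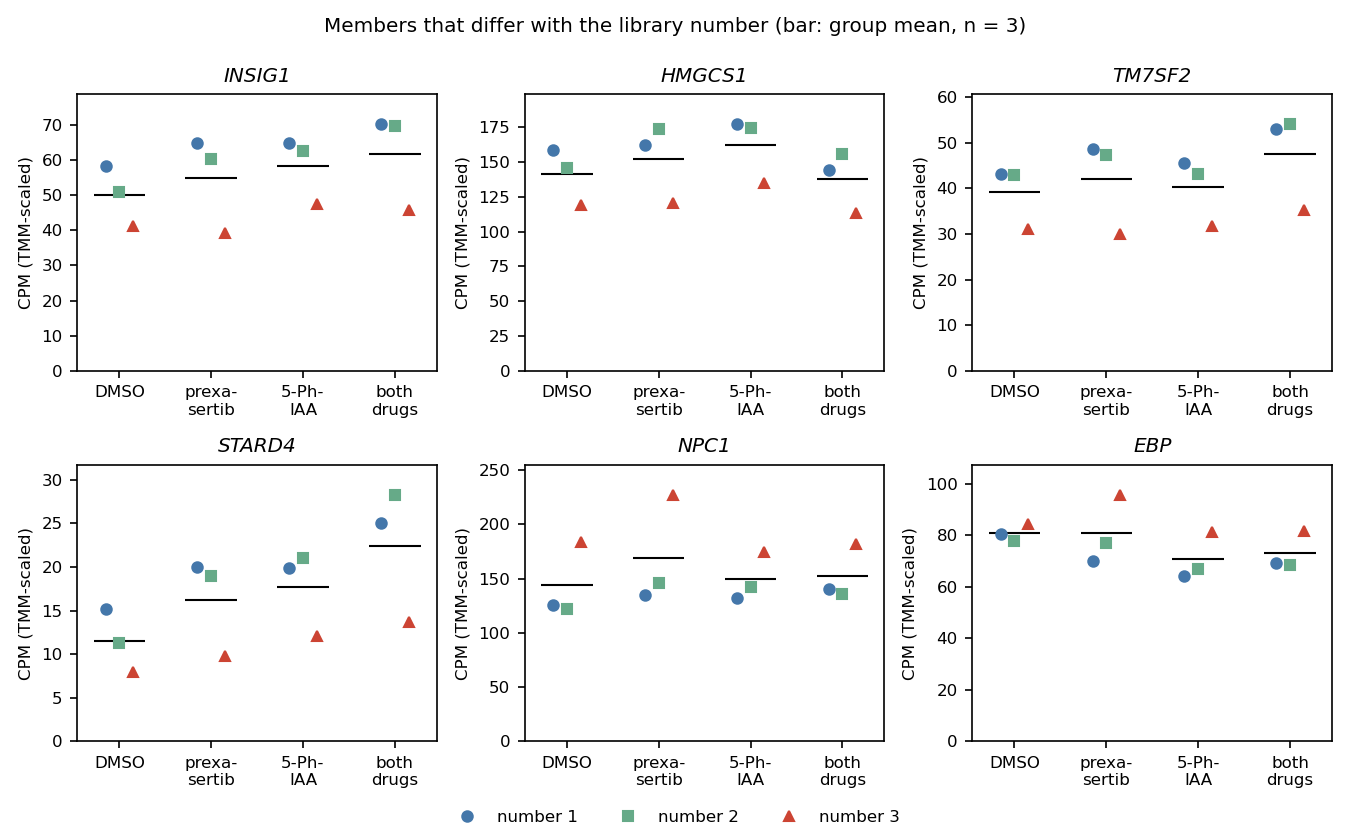
CPM of 6 genes that differed with the replicate number, with each of the 12 libraries as a point shaped and coloured by its number and a bar at each group mean (n = 3). INSIG1, HMGCS1 and TM7SF2 have every number 3 library below all others, and NPC1 and EBP have every number 3 library above. For STARD4 the range of number 3 overlaps that of the other libraries.

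A list of 22 further genes of sterol metabolism was examined beside the 28. With 5-Ph-IAA 4 of 22 rose and 3 fell (9.65% and 12.2% of all tested genes), with a median log2 difference of 0.07. The block gave 6 and 6 (19% and 23.6% of all genes). Scaling by library size alone gave 10 and 2, beside 3018 and 986 of all 14658 genes tested. The median of all genes was then 0.16. GGPS1, which extends farnesyl diphosphate and so draws on the product of FDPS, rose from 34.1 ± 4.65 to 54.7 ± 1.28 CPM (log2 0.68 ± 0.10, edgeR adjusted p = 0.00045). LBR, a nuclear envelope protein with sterol reductase activity, fell from 135 ± 8.82 to 89.8 ± 5.64 CPM (log2 -0.59 ± 0.077, edgeR adjusted p = 0.00015). With both drugs against prexasertib 3 rose and 2 fell, which is 13.6% and 9.09% of the 22 beside 7.85% and 10.4% of all tested genes. The block gave 6 and 4, beside 17.2% and 19.9%. GGPS1 rose by 0.42 ± 0.10 (edgeR adjusted p = 0.012) and LBR fell by 0.81 ± 0.077 (1.4e-05). GGPS1 lost that call without both drugs 2, when 1 gene of the list rose. For prexasertib against DMSO 2 of 22 rose and 0 fell, beside 2.36% and 2.37% of all genes, and without DMSO 2 or prexasertib 1 the number that rose was 0. With the block 4 rose and 1 fell, beside 8.37% and 9.77%. LBR stood at 172 ± 9.77 CPM (log2 0.35 ± 0.076, edgeR adjusted p = 0.02), a call lost without DMSO 2 or 3, without prexasertib 1 or 2, and under scaling by library size alone. For both drugs against 5-Ph-IAA 0 of 22 were called by edgeR and by DESeq2, with 4 at an unadjusted p under 0.05, and with the block 1 rose and 2 fell, beside 7.8% and 7.7% of all genes. In the number 3 libraries 4 were higher (2 without DMSO 3 or 5-Ph-IAA 3) and 5 lower (3 without 5-Ph-IAA 2 or both drugs 3). These are 18.2% and 22.7% of the 22, near the 22.6% and 21.2% of all tested genes. The largest called rise was that of NPC2, the lysosomal partner of NPC1 (0.25 ± 0.042, edgeR adjusted p = 3.8e-06).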

How the data were processed

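RNA counts of 12 libraries (4 groups of 3) were used, and the 13 CUT&RUN samples were not analysed here. The authors deposited raw counts per gene, whole numbers that had not been normalized. Per the submitters' processing notes featureCounts 2.0.8, limma 3.58.1 and hg38 were used, and per the labels' protocols poly(A)-selected, directional libraries were made. Aligner, annotation and strand setting: not given in the sources used here. Where a gene overlaps another, as 17 of the 28 did, the reads may be shared. Of 28395 gene IDs 27745 matched the reference table, and the other 650 held 0.0324% of counts.

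Groups follow the labels. Counts were analysed in R 4.3.3 with edgeR 4.0.16. filterByExpr (minimum count 10, minimum total 15) kept 14658 genes with 99.92% of counts, and TMM scaling factors ranged from 0.925 to 0.978 in the groups without the ligand and from 1.02 to 1.1 in the others. A robust quasi-likelihood F-test on all 12 libraries gave each comparison, adjusted by Benjamini-Hochberg over all genes tested and called under 0.05. The SE is the log2 fold change divided by the square root of F. The steps were run on simulated data that held no difference by replicate number. That run does not show how the replicate block performs where the numbers differ, and it left out the contrast by number. The biological coefficient of variation was 12.8%, and 5.72% with replicate number. The labels do not say whether libraries came from separate cultures, so p-values measure only the spread between these samples.

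Same-numbered libraries deviated from their group means together (Pearson r across genes 0.22 to 0.348 for number 1, 0.261 to 0.402 for number 2 and 0.531 to 0.633 for number 3, 6 pairs each, all over 0.1), so the numbers were taken to pair the samples. Libraries with different numbers gave -0.503 to 0.366 (median -0.361, 36 pairs). Among these, number 1 with number 2 gave 0.196 to 0.366, much as libraries sharing number 1 or 2 did. The correlations therefore set number 3 apart but do not tell number 1 from number 2. The pairing comes from these data, since no label states a shared source.

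The 28 genes were taken by symbol and not by their values, but earlier results of these data were already known. The further lists, the contrast by number and the tests were also chosen with those results known. Values by library are given for genes called in a drug comparison and for those with the 3 largest differences by number. From each further list the called genes with the largest rise and fall are named, except 1 that is not reported here. Alternatives were DESeq2 1.42.0, DESeq2 size factors, library size alone, no filter on low counts, the replicate block, leaving out the number 3 libraries, and leaving out each library. They were applied to the further lists after the data were seen.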

Additional observations from a re-analysis of the deposited data

Results flagged for a closer look

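HMGCS1, the synthase before mevalonate, was the 1 gene of the 28 called for the interaction with the replicate block. It was chosen for this account after its values were seen. The interaction of the 2 drugs was -0.34 on the log2 scale (SE 0.079, edgeR adjusted p = 0.026 with the replicate block), and all 3 numbers had a rise in one arm and a fall in the other. Without the block the same value had an SE of 0.23 and an edgeR adjusted p of 1. That fit called 0 of all 14658 genes for the interaction. With the number 3 libraries left out, the interaction of HMGCS1 was -0.39 (edgeR adjusted p = 0.021). This run reuses the other libraries, at 2 a group, and called 93 genes higher and 94 lower of all 14730.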

How the results depend on the processing

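No call of the 28 genes changed sign in any alternative. Of their values in the drug comparisons, over all alternatives, 2419 kept their side of the threshold, 51 gained a call and 50 lost one. Most of these values were not called in the main fit, so the 2419 do not measure how well calls held. The 50 losses fell on the few calls of that fit. SCAP for both drugs against prexasertib lost its call in 13 of 18 alternatives, and NR1H2 in 0. In the contrast by number 398 kept it, 3 gained a call and 47 lost one. In counts of the 28 genes, the replicate block gave 4 genes higher for prexasertib (2 without it), 7 higher and 8 lower for 5-Ph-IAA (4 and 2), 7 higher and 3 lower for both drugs against prexasertib (2 and 1), 6 higher and 2 lower for both drugs against 5-Ph-IAA (0 and 0), and 1 lower for the interaction (0). Without the number 3 libraries the counts were 8 higher and 6 lower for 5-Ph-IAA (2459 and 2837 of all 14730 genes tested), 4 higher for both drugs against prexasertib (1933), 4 higher and 2 lower for both drugs against 5-Ph-IAA (911 and 1131), and 1 lower for the interaction (94). Library size alone as the scaling gave 0 higher for prexasertib (295 of all 14658 genes tested). It gave 0 lower for 5-Ph-IAA, and 5 higher and 0 lower for both drugs against prexasertib. It moved the median of all genes to 0.16 for 5-Ph-IAA and 0.15 for both drugs against prexasertib, and all-gene calls from 1414 higher and 1787 lower to 3018 and 986, and from 1150 and 1524 to 2569 and 889. DESeq2 size factors gave 1 higher for both drugs against prexasertib (1096 of all genes). No filter gave 1 higher for prexasertib (297 of all 21797 genes) and 1 higher for both drugs against prexasertib (983). DESeq2 gave 2 lower for both drugs against prexasertib (1757 of all genes). The cause of these changes was not tested. Leaving out each library in turn gave 0 to 2 genes higher for prexasertib (0 without prexasertib 1, 183 of all genes). For 5-Ph-IAA it gave 1 to 4 higher (1 without DMSO 3, 1063 of all genes). It gave 0 to 2 lower there (0 without 5-Ph-IAA 2, 1248 of all genes). For both drugs against prexasertib it gave 1 to 2 higher and 1 to 2 lower. Without both drugs 2, 692 of all genes were higher and 1112 lower. By number it gave 5 to 7 higher and 9 to 15 lower (9 without both drugs 3, 2891 of all genes). These fits tested 14811 to 14897 genes. Depth and 3 libraries a group left a median SE of 0.121 to 0.122 for the 28 genes in the pairwise drug comparisons (0.073 to 0.075 with the block), so 0 calls do not show that genes did not change.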

Other observations

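A list of 13 genes of fatty acid and glycerolipid synthesis, the branch that SREBP1 controls, was examined beside the cholesterol genes. Of these 6 fell and 3 rose for 5-Ph-IAA against DMSO, with a median log2 difference of -0.27, beside 12.2% of all tested genes that fell and 9.65% that rose. MID1IP1, an activator of acetyl-CoA carboxylase, fell from 61.5 ± 2.97 to 29.2 ± 1.82 CPM (mean ± SD, n = 3; log2 -1.08 ± 0.091, edgeR adjusted p = 4.2e-06). GPAM, which starts glycerolipid synthesis, rose from 45.1 ± 3.62 to 60.3 ± 3.78 CPM (log2 0.42 ± 0.099, edgeR adjusted p = 0.0086). Scaled by library size alone 2 fell and 3 rose (986 and 3018 of all 14658 genes tested). With the replicate block 8 fell and 3 rose (23.6% and 19% of all genes). Without DMSO 1, DMSO 2 or 5-Ph-IAA 2 the number that rose was 1.

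For both drugs against prexasertib 6 of 13 fell and 2 rose, beside 10.4% and 7.85% of all tested genes, with a median of -0.33. MID1IP1 fell from 63.0 ± 3.71 to 29.4 ± 2.75 CPM (log2 -1.10 ± 0.091, edgeR adjusted p = 4.8e-06), and ACSS2, which makes acetyl-CoA from acetate, rose from 27.3 ± 2.90 to 37.9 ± 2.40 CPM (log2 0.47 ± 0.10, edgeR adjusted p = 0.0063). Scaled by library size alone 3 fell and 3 rose (889 and 2569 of all 14658 genes tested). With the replicate block 9 fell and 3 rose (19.9% and 17.2% of all genes). Prexasertib alone gave 0 calls of 13 by edgeR and by DESeq2, with 1 gene at an unadjusted p under 0.05 and with the block 3 rose and 0 fell (8.37% and 9.77% of all genes). In the number 3 libraries 7 of 13 were lower and 0 higher (21.2% and 22.6% of all tested genes). FADS2, a fatty acid desaturase, was lower by 0.39 ± 0.04 on the log2 scale (edgeR adjusted p = 3.3e-11).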
